A study of Mus musculus with 3 samples.

Results

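The transcripts of 42 mouse genes of the ATF4 programme and the unfolded protein response were examined in MC3T3-E1 cells exposed to titanium (Ti) particles with or without selenomethionine (Se-Met). The genes were taken from a list of ATF4 targets, stress sensors and proteins of the endoplasmic reticulum (ER). All 42 were among the 15287 genes of the deposited table, and all 42 were among the 11137 genes that reached 1 FPKM in 1 or more libraries. FPKM is the number of fragments of a transcript scaled to its length and to the total of its library. The members formed an ATF4 arm of 19 genes, an ER chaperone arm of 14 genes, 5 sensor genes and 4 genes of ER-associated degradation (ERAD).

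MC3T3-E1 is a wild-type preosteoblast line derived from mouse calvaria, and RNA from each of 3 cultures was sequenced as 1 library. The CTL library came from cells with no special treatment, for which the labels give no time. The Ti library came from cells kept with Ti particles for 24 h at a dose of 10 μg per square centimetre. The Ti+Se-Met library came from cells given the same dose of particles together with Se-Met at 5 μM for 24 h. No library of cells given Se-Met alone was analysed here, and all comparisons rest on a single cell line. With 1 library per condition no difference had a replicate check, no test was run and no p-value was computed. In bulk RNA, fewer cells of a type and less RNA per cell cannot be told apart.

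Where 3 values are given for a gene, they stand in the order CTL, Ti, Ti+Se-Met. The table summed to 448285, 526017 and 514568 FPKM. Depth, estimated from the steps of 1 fragment in short genes, was about 14350000, 14800000 and 10050000 fragments. The estimate is approximate, because at most 61.5% of the low values used in a library lay on a step, against 18.0% by chance. All 9 osteoblast-lineage markers were listed, and they summed to 5316, 5079 and 6425 FPKM. Col1a2 was lowest in Ti at 2688, 999 and 1257 FPKM, and Spp1 was highest in Ti+Se-Met at 1261, 3706 and 4659 FPKM. Runx2 was at 26.8, 17.1 and 23.0 FPKM, Alpl at 1.51, 0.2 and 0.2, and Bglap2 at 3.76, 1.51 and 2.98. The markers Sp7, Bglap and Ibsp were below 1 in all libraries. Of 7 macrophage or osteoclast markers 3 were not listed, and Csf1r, Cd68 and Acp5 were below 1 in all libraries. Their sum of 17.9 to 30.2 FPKM was almost entirely Ctsk, which osteoblast-lineage cells can also express. Endothelial, adipocyte and muscle marker sums stayed between 0.12 and 1.10 FPKM. Of these markers Cdh5, Kdr, Plin1 and Myod1 were not listed, so the endothelial sum is Pecam1 alone.

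When the alpha subunit of eIF2 is phosphorylated by PERK or a related kinase, general translation falls while ATF4 mRNA is translated better. ATF4 then induces genes of amino acid synthesis, redox balance and cell fate, which is called the integrated stress response. Unfolded proteins in the ER also engage IRE1, which splices Xbp1 mRNA, and ATF6, and these induce chaperones, oxidoreductases and ERAD factors. In osteoblasts, ATF4 is known for its role in amino acid supply and bone matrix synthesis, and the ER chaperones fold large amounts of secreted collagen. Phosphorylation, splicing and protein levels are not measured by FPKM values per gene.

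The motifs searched in the promoters fell in different arms. Sequences from 250 bases before to 50 after the annotated start were taken from RefSeq on GRCm38.p6, and 39 of the 42 members had an entry, with Atf6, Hyou1 and Manf unmatched. The C/EBP-ATF element TGATGNAA, to which ATF4 dimers are known to bind, was found on either strand in 5 of 19 ATF4 arm genes, in 0 of 12 ER chaperone genes and in 3.97% of the 32851 promoters of all genes. A member was counted if any of its promoters held the motif, whereas the overall share is per promoter. The 5 ATF4 arm windows that hold the motif are shown along the strand that carries it, with its fixed bases in capitals. Their genes were higher in the Ti library as deposited, as were the 14 ATF4 arm genes without the motif.
Atf3, chr1:191183425-191183454, plus strand: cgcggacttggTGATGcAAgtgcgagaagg
Trib3, chr2:152344028-152344057, plus strand: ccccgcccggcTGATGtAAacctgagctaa
Chac1, chr2:119351038-119351067, minus strand: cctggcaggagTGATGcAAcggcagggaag
Asns, chr6:7693214-7693243, minus strand: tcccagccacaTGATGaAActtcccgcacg
Pycr1, chr11:120643833-120643862, minus strand: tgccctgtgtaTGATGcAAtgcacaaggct

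The ER stress element was searched as CCAAT and CCACG with 9 bases between them, on both strands. It was found in 7 of 12 ER chaperone genes, in 0 of 19 ATF4 arm genes, in the ERAD gene Syvn1 and in 0.119% of all promoters. The windows that hold it are shown with both parts of the element in capitals. Their genes were lower or nearly level in the Ti library, apart from Syvn1. The 5 chaperone genes with a promoter but without this element were mixed as deposited. Dnajb11, Pdia3 and Pdia4 were lower in Ti, and Dnajb9 and Sdf2l1 were higher. Hsp90b1 carried the element at 2 places, on opposite strands.
Hspa5, chr2:34772020-34772048, plus strand: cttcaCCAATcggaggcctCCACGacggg
Hsp90b1 distal, chr10:86705633-86705661, minus strand: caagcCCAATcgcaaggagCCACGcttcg
Hsp90b1 proximal, chr10:86705528-86705556, plus strand: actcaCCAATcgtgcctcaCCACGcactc
Dnajc3, chr14:118937822-118937850, plus strand: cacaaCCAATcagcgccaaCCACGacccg
Pdia6, chr12:17266486-17266514, plus strand: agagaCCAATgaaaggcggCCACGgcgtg
Calr, chr8:84847070-84847098, plus strand: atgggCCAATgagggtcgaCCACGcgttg
Canx, chr11:50325795-50325823, minus strand: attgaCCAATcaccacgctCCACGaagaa
Creld2, chr15:88819515-88819543, minus strand: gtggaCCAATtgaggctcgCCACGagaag
Syvn1, chr19:6046527-6046555, plus strand: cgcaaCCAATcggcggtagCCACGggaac

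The second form of the ER stress element, ATTGG and CCACG with 1 base between them, was found in Dnajb11 and Herpud1 and in 0.0365% of all promoters. Herpud1 was the only member with both a C/EBP-ATF element and an ER stress element in these windows. The UPR element TGACGTG was found in Hspa5 alone among the members with a promoter, and in 2.01% of all promoters. The Herpud1 and Dnajb11 windows are shown with the motif letters in capitals.
Herpud1 C/EBP-ATF element, chr8:94386306-94386335, minus strand: ggggtgcgggcTGATGcAAcccgccgtggt
Herpud1 ER stress element, chr8:94386368-94386396, plus strand: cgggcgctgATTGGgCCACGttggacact
Dnajb11, chr16:22857843-22857871, plus strand: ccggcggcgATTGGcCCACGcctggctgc

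The 250 bases before the annotated start of Asns and of Hspa5, the best-known target of each arm, show the motifs in their setting. A match is a description of letters, not evidence of binding in these cells.
Asns, chr6:7693210-7693459, minus strand: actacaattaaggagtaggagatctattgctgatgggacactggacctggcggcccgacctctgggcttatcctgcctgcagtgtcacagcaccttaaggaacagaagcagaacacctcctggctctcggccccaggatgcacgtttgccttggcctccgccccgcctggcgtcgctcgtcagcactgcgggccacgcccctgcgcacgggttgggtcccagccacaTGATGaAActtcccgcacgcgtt
Hspa5, chr2:34771840-34772089, plus strand: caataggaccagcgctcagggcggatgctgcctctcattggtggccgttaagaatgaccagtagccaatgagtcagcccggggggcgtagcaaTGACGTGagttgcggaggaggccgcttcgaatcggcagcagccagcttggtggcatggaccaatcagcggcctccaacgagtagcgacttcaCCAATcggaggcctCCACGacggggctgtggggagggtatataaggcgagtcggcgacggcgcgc

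The first question was how the 2 arms stood in the Ti library against CTL. All 19 ATF4 arm genes were higher in Ti than in CTL, whereas 10 of the 14 ER chaperone genes were lower. A ratio below is a difference in log2(FPKM + 1), called the log2 ratio, in which the added 1 shrinks the difference of a low gene. A fold is the plain quotient of 2 FPKM values, and its 95% exact conditional binomial interval on the estimated fragments covers counting error only and compares libraries, not conditions. The median log2 ratio was 1.07 in the ATF4 arm, -0.29 in the ER chaperone arm and 0.08 over all 11137 genes.

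At least 2-fold higher in log2 ratio were 10 of the 19 ATF4 arm genes, against 3.63% of all genes. At least 1.5-fold higher were 16 of 19, against 15.5%. The 16, and the 19 higher by any amount, include Atf3, which passed the filter only through the Ti library. Higher by any amount were 55.3% of all genes and lower 44.5%. No member was 2-fold lower, against 3.64% of all genes, and the 4 members at least 1.5-fold lower, against 11.3%, were the chaperone genes Hsp90b1, Calr, Pdia3 and Pdia4. Direction near 0 depended on the scaling. With each library set to the same FPKM sum (TPM) or to its upper quartile, Cebpg was lower in Ti and Hsp90b1 reached 2-fold lower. The 10 ATF4 arm genes at least 2-fold higher became 8 with TPM and 9 with the upper quartile. Over all genes the 404 higher and 405 lower 2-fold calls became 185 and 674 with TPM and 215 and 601 with the upper quartile.

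**Figure D1:**
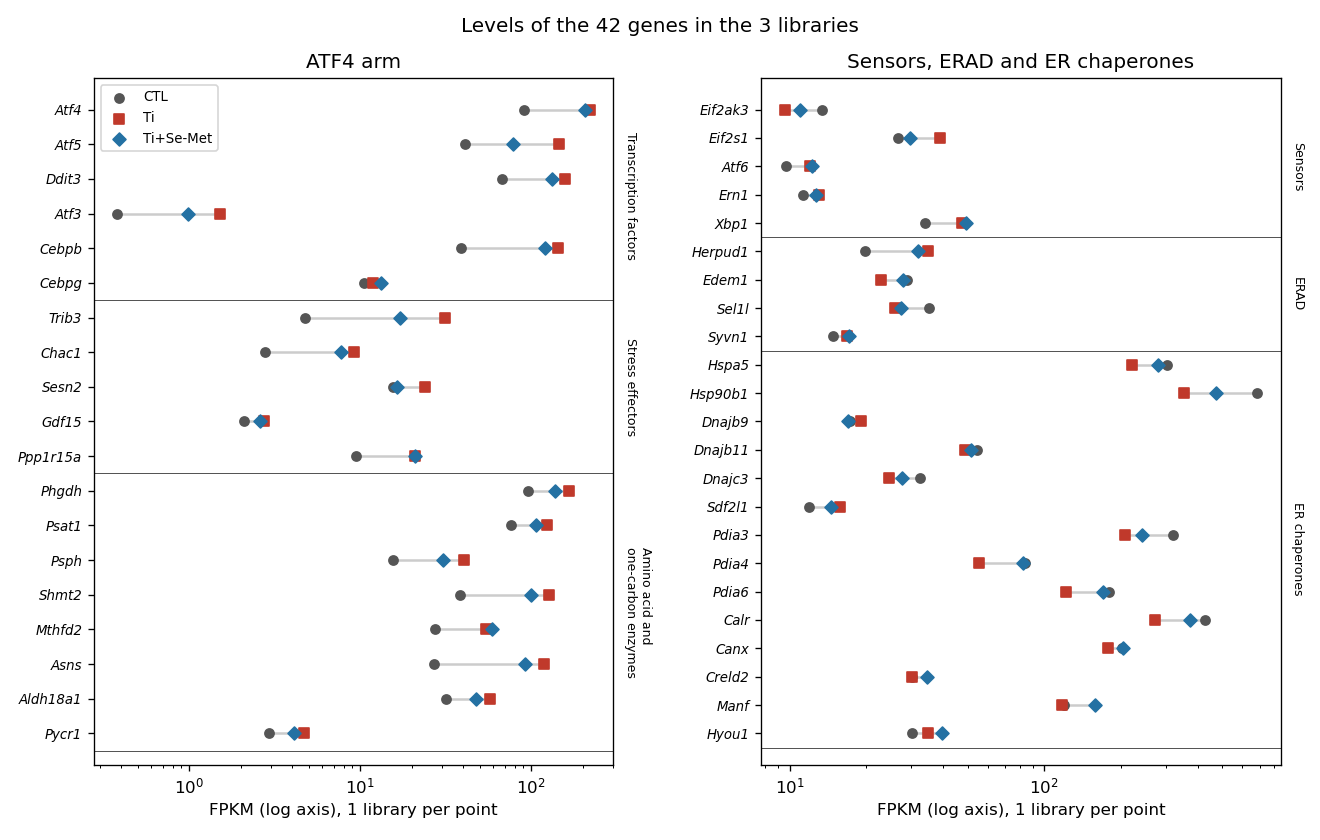
FPKM of each of the 42 genes (log axis) in the CTL, Ti and Ti+Se-Met libraries, with 1 library per point and a grey line from the lowest to the highest value. In the left panel the CTL point is the lowest for 19 of 19 ATF4 arm genes as deposited. With TPM, CTL is below Ti for 18 of 19 (not Cebpg) and below Ti+Se-Met for 18 of 19 (not Sesn2). For the ER chaperone genes, lowest in the right panel, the Ti point is the lowest for 10 of 14 as deposited.

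Among the transcription factors, Atf4 itself was at 91.0, 219.8 and 207.0 FPKM. Both particle libraries were thus more than 2-fold above CTL and close to each other, with a fold in Ti over CTL of 2.42 (interval 2.29 to 2.54). Cebpb, a C/EBP factor that dimerises with ATF4, was at 39.0, 143.7 and 120.6 FPKM, a fold of 3.68 (3.40 to 4.0) in Ti over CTL and the largest log2 ratio of the factors, 1.85. Atf5, whose translation is controlled like that of Atf4, was at 40.9, 145.0 and 77.9 FPKM, a fold of 3.55 (3.30 to 3.82). Ddit3, which encodes the stress factor CHOP, was at 67.9, 156.8 and 131.9 FPKM, a fold of 2.31 (2.12 to 2.52). For Atf4, Cebpb, Atf5 and Ddit3 the Ti+Se-Met library lay between the other libraries.

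Atf3, an early stress factor, was near the floor at 0.38, 1.51 and 0.98 FPKM, or about 10, 41 and 18 fragments. It passed the expression filter only through the Ti library, so its height there was a condition of being counted. Its fold of 3.97 in Ti over CTL had a wide interval (1.96 to 8.90), and its log2 ratio was 0.86. Cebpg, another dimer partner of ATF4, was almost level at 10.5, 11.9 and 13.2 FPKM, the smallest log2 ratio of the arm (0.17) and one whose sign depended on the scaling. The factors therefore spread from almost level to more than 3.5-fold.

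Of the stress effectors, Trib3, a pseudokinase that binds ATF4 and CHOP, had the largest log2 ratio of all 42 genes. It was at 4.73, 31.3 and 17.2 FPKM, a fold of 6.61 (5.50 to 8.05) in Ti over CTL. Its log2 ratio of 2.49 ranked 10 from the highest of 11137 genes. Chac1, which encodes a glutathione-degrading enzyme, was at 2.78, 9.25 and 7.69 FPKM, a fold of 3.33 (2.5 to 4.56). Ppp1r15a encodes GADD34, the phosphatase subunit that reverses eIF2 phosphorylation. It was at 9.48, 21 and 20.8 FPKM, a fold of 2.22 (1.93 to 2.55), with the particle libraries nearly equal.

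The remaining effectors differed less. Sesn2, an inhibitor of mTORC1 signalling, was at 15.5, 24.0 and 16.4 FPKM, so that only the Ti library stood above the others, with a fold of 1.55 (1.41 to 1.70) over CTL. Gdf15, a secreted stress cytokine, was at 2.1, 2.75 and 2.60 FPKM. Its fold of 1.31 was the only one of the ATF4 arm whose interval included 1 (0.836 to 1.99), and a difference was not detectable at this depth.

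**Figure D2:**
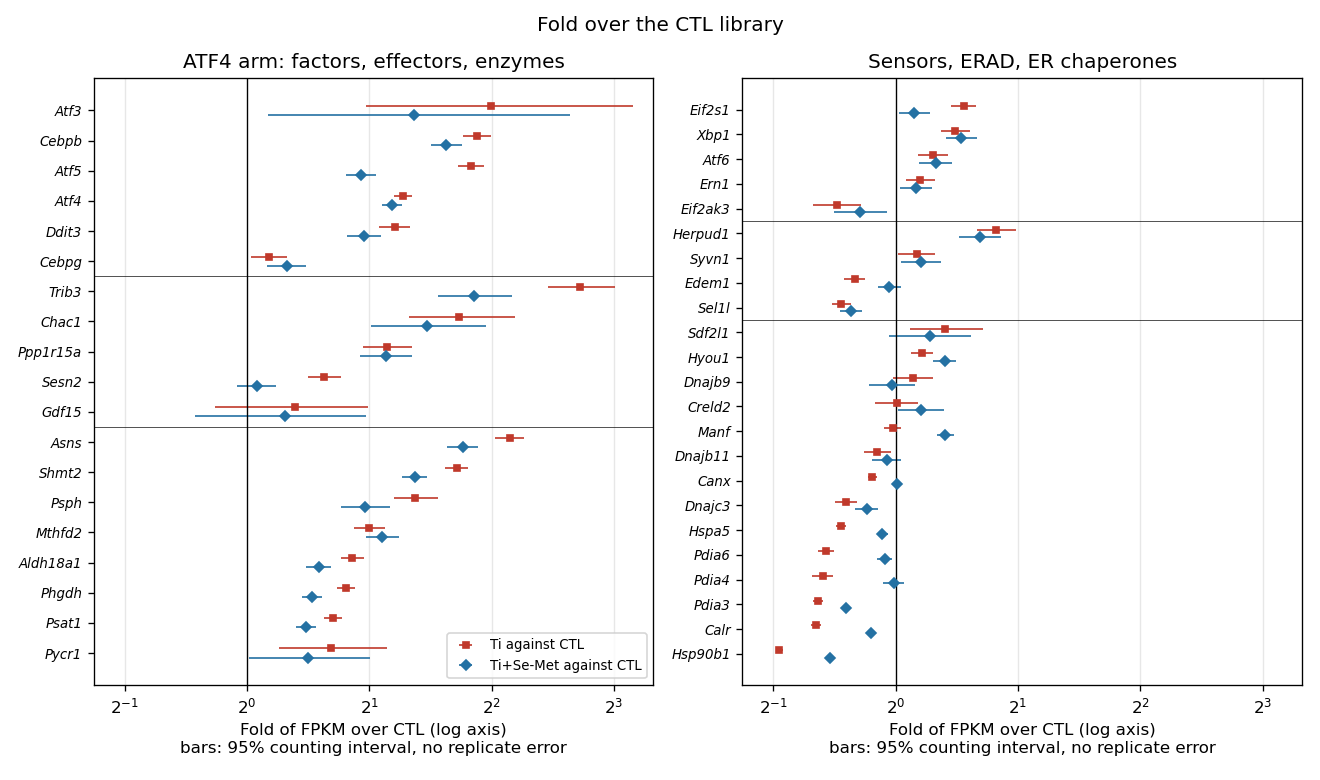
Fold of FPKM over the CTL library (log axis) for each member in Ti (red) and Ti+Se-Met (blue), grouped by role and sorted by the Ti fold, with 95% counting intervals that hold no replicate error. In Ti against CTL the interval lies above 1 for 18 of 19 ATF4 arm genes (42.9% of all genes with a length) and below 1 for 9 of 14 ER chaperone genes (32.0%), as deposited.

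All 8 amino acid and folate enzymes were higher in Ti than in CTL, against 55.3% of all genes. In log2 ratio 7 of them were at least 1.5-fold higher, against 15.5%, and 3 at least 2-fold higher, against 3.63%. The serine route starts with Phgdh, which was at 95.1, 166.3 and 137.6 FPKM. Psat1, the transaminase of the next step, was at 76.0, 123.7 and 106.1 FPKM, and Psph, the phosphatase that releases serine, was at 15.6, 40.5 and 30.5 FPKM. The folds in Ti over CTL were 1.75 (1.66 to 1.84), 1.63 (1.55 to 1.71) and 2.60 (2.30 to 2.95) in the order of the steps. The least abundant enzyme of the route per length, Psph, thus had the largest fold.

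Downstream of serine, Shmt2, the mitochondrial enzyme that turns serine into glycine, was at 38.5, 126.4 and 99.6 FPKM, a fold of 3.28 (3.07 to 3.51) in Ti over CTL. Mthfd2, which oxidises the folate product in mitochondria, was at 27.2, 54.4 and 58.6 FPKM, a fold of 2.0 (1.83 to 2.18) and a log2 ratio of 0.97. It and Cebpg were the only ATF4 arm genes with their highest level in Ti+Se-Met. Asns, asparagine synthetase, was at 26.9, 119.3 and 91.4 FPKM, a fold of 4.44 (4.09 to 4.81), and its log2 ratio of 2.11 ranked 21 from the highest. Of the proline route, Aldh18a1 was at 31.6, 57.3 and 47.4 FPKM and Pycr1 at 2.91, 4.68 and 4.12, with folds of 1.82 (1.71 to 1.94) and 1.61 (1.20 to 2.21). Summed over the 8 enzymes the level was 313.9, 692.7 and 575.3 FPKM.

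**Figure D3:**
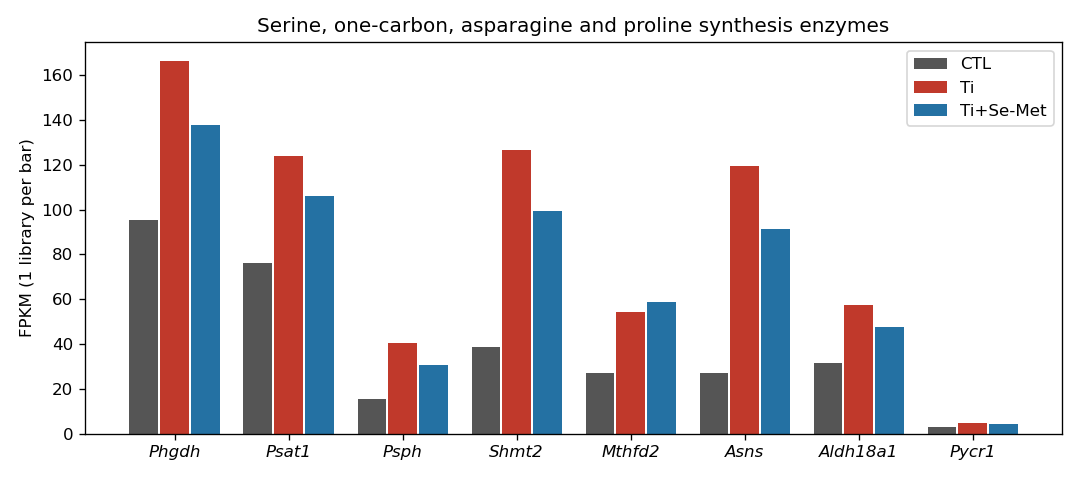
FPKM of the 8 amino acid and folate enzymes, with 1 library per bar and no error bar because conditions had no replicates. For 7 genes the bars run CTL, Ti+Se-Met, Ti from low to high, and for Mthfd2 the Ti+Se-Met bar (58.6) is above the Ti bar (54.4).

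The 5 sensor genes, whose products detect stress or relay it, differed less than the ATF4 arm. Their median log2 ratio was 0.28 in Ti against CTL, and 0 of 5 reached 1.5-fold, against 15.5% of all genes higher and 11.3% lower. Eif2ak3, which encodes PERK, the ER kinase of eIF2, was the lowest at 13.4, 9.59 and 10.95 FPKM, a fold of 0.718 (0.625 to 0.824). Eif2s1, the eIF2 alpha subunit, was at 26.6, 39.1 and 29.6 FPKM, a fold of 1.47 (1.37 to 1.58). Atf6 was at 9.72, 12.0 and 12.2 FPKM and Ern1, which encodes IRE1, was at 11.3, 13.0 and 12.7 FPKM, with the sign for Ern1 depending on the scaling. Xbp1, the target of IRE1 and itself a factor for chaperone genes, was at 33.9, 47.5 and 49.2 FPKM, a fold of 1.40 (1.29 to 1.52).

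Within the 14 genes of the chaperone arm, the 5 most abundant in CTL all had lower levels in Ti. Hsp90b1, which encodes GRP94, was at 684.8, 354.0 and 473.2 FPKM, a fold of 0.517 (0.506 to 0.528) in Ti over CTL and the lowest log2 ratio of the 42 genes (-0.95). Hspa5 encodes BiP, the HSP70 chaperone that holds the sensors inactive. It was at 302.2, 221.8 and 280.3 FPKM, a fold of 0.734 (0.713 to 0.756). Of the lectin chaperones that fold glycoproteins, Calr was at 429.3, 273.4 and 373.1 FPKM, a fold of 0.637 (0.619 to 0.655), and Canx was at 202.7, 177.6 and 203.9 FPKM, a fold of 0.876 (0.854 to 0.899). In all 4 genes the Ti library was the lowest of the 3 libraries.

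The disulfide isomerases Pdia3, Pdia4 and Pdia6 had the same order, with Ti lowest. Pdia3 was at 321.5, 207.7 and 242.8 FPKM, a fold of 0.646 (0.628 to 0.665) in Ti over CTL. Pdia4 was at 83.7, 55.3 and 82.9 FPKM, a fold of 0.661 (0.623 to 0.702), and Pdia6 was at 180.3, 121.6 and 169.4 FPKM, a fold of 0.674 (0.646 to 0.704). For Pdia4 and Pdia6 the Ti+Se-Met level was close to that of CTL.

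The co-chaperones of BiP were mixed. Dnajc3, which also inhibits PERK, was at 32.5, 24.6 and 27.6 FPKM, a fold of 0.755 (0.710 to 0.804), and Dnajb11 was at 54.3, 49.0 and 51.6 FPKM. Dnajb9 was at 17.3, 19.1 and 16.9 FPKM, with an interval that included 1. Sdf2l1, a partner of Dnajb11, had the highest log2 ratio of the arm (0.38), at 12.0, 15.9 and 14.6 FPKM. Hyou1, the nucleotide exchange factor of BiP, was at 30.2, 35.0 and 39.9 FPKM. The intervals of Creld2, at 30.1, 30.4 and 34.8 FPKM, and of Manf, a secreted factor of the ER, at 119.1, 117.2 and 157.9 FPKM, included 1 in Ti over CTL. The 4 chaperone genes that were higher in Ti as deposited were Sdf2l1, Hyou1, Dnajb9 and Creld2, and the last 3 changed sign with the scaling.

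The ERAD genes were split evenly. Herpud1, an ER membrane protein of the degradation complex, was at 19.8, 35.1 and 31.9 FPKM, a fold of 1.77 (1.59 to 1.98) in Ti over CTL. It was the only ERAD gene to reach 1.5-fold, against 15.5% of all genes higher by that much. Edem1, which recognises misfolded glycoproteins, was at 28.9, 22.9 and 27.8 FPKM, a fold of 0.792 (0.746 to 0.842), and Sel1l, the adaptor of the ligase, was at 35.3, 26.0 and 27.4 FPKM, a fold of 0.735 (0.696 to 0.777). Syvn1, the ligase HRD1, was at 14.9, 16.8 and 17.2 FPKM, and its sign depended on the scaling. The log2 ratio of Herpud1, whose promoter held both a C/EBP-ATF and an ER stress element, was 0.79, within the range of the ATF4 arm and above that of the chaperone arm.

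Set against each other, the arms were almost separate in Ti against CTL. The members and their grouping were chosen with earlier results of these data known, so the separation is a description and not a test. Of the 19 ATF4 arm genes, 17 had a log2 ratio above that of Sdf2l1, the highest chaperone, and 12 of 14 chaperones were below Cebpg, the lowest ATF4 arm gene. Both counts were the same with TPM, with the upper quartile and with scaling by the median of ratios. Each of these scalings divides a whole library by 1 factor. It can therefore change the order of genes and the difference of medians only through the added 1, and is no check of the separation. The medians differed by 1.36 in log2 ratio as deposited and by 1.36 to 1.37 over these scalings. In summed level, the ATF4 arm went from 598.1 FPKM in CTL to 1460 in Ti, or from 0.133% to 0.278% of all FPKM. The ER chaperone arm went from 2500 to 1702, or from 0.558% to 0.324%. The chaperone sum was thus 4.18 times the ATF4 sum in CTL and 1.17 times in Ti.

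**Figure D4:**
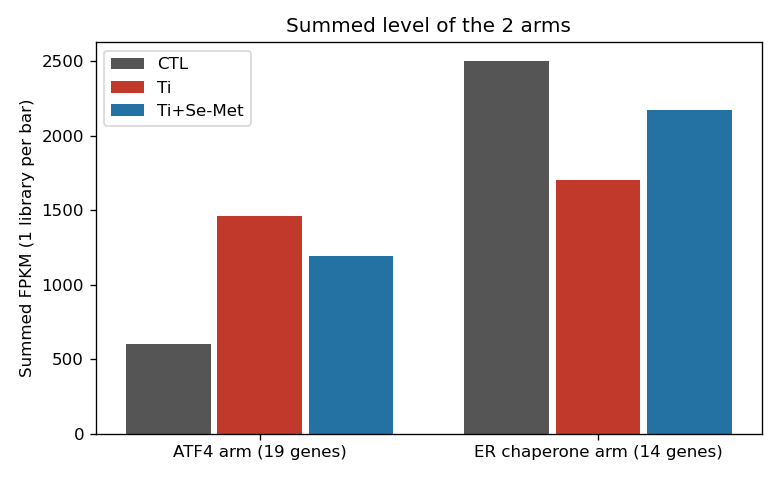
Summed FPKM of the 19 ATF4 arm genes and the 14 ER chaperone genes in each library, with 1 library per bar. The ATF4 bars are lowest in CTL (598.1) and highest in Ti (1460), and the chaperone bars are highest in CTL (2500) and lowest in Ti (1702).

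Collagen transcripts, a main load of the ER in osteoblasts, were also lowest in the Ti library. Col1a1 was at 1333, 354.2 and 481.6 FPKM, and Col1a2 followed the same order. Over 6 collagen folding genes the median log2 ratio of the Ti library to CTL was -0.24. Of them 0 were higher and 5 lower, against 55.3% and 44.5% of all genes. In the Ti+Se-Met library the median was also -0.24, with 6 of 6 lower than CTL, against 48.8% of all genes. Only Serpinh1 and P4ha1 had their lowest level in Ti. The part of collagen levels in the chaperone values was not tested.

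Genes of the same pathways outside the list gave smaller differences. Of 19 other integrated stress response genes that passed the filter, 15 were higher in Ti than in CTL and 4 were lower. The shares of all genes were 55.3% and 44.5%, and the median log2 ratio of the 19 was 0.42. At least 2-fold higher were 2 of them, against 3.63% of all genes. They were the stress regulator Nupr1 at 31.1, 115.8 and 101.7 FPKM and the C/EBP factor Cebpd at 15.3, 37.6 and 30.9 FPKM. Of 34 other unfolded protein response and ER folding genes, 20 were higher and 14 lower, near the shares of all genes. Of these 34, 0 reached 2-fold, against 3.63% of all genes higher and 3.64% lower, and the median was 0.03. The 34 genes include the abundant isomerase gene P4hb at 435.2, 440.8 and 485.0 FPKM, which was nearly level in Ti against CTL. The median of this wider ER list was close to the 0.08 of all genes, whereas that of the chaperone arm was -0.29. Stc2 and Derl3 were not listed, and Cth was listed below 1 FPKM in all libraries.

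The next comparison asked where the Ti+Se-Met library stood against CTL. All 19 ATF4 arm genes were still higher than in CTL as deposited, against 51.0% of all genes, although Sesn2 was lower with TPM and with the upper quartile. At least 2-fold higher were 8 of the 19, against 2.64% of all genes, and the arm's median log2 ratio was 0.93. These 8 were Atf4, Cebpb, Trib3, Chac1, Ppp1r15a, Shmt2, Mthfd2 and Asns. With TPM 5 of them remained, and Atf4 at 0.98, Ppp1r15a at 0.88 and Mthfd2 at 0.88 in log2 ratio fell short of 2-fold. In the ER chaperone arm 5 genes were higher and 9 lower, against 48.8% of all genes lower, and 0 were 2-fold lower, against 3.32%. The chaperone median was -0.05, so the arms differed by 0.97 in this comparison. Hsp90b1 at a fold of 0.691 (0.676 to 0.706) and Pdia3 at 0.755 (0.732 to 0.778) were the lowest chaperones, and Manf at 1.33 (1.26 to 1.39) was the highest.

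The last comparison asked how the Ti+Se-Met library differed from the Ti library. It shares the Ti library with the comparison of Ti against CTL, so a high or low value in Ti enters both, and the values are given side by side only. In Ti+Se-Met 17 of 19 ATF4 arm genes were lower than in Ti, against 61.1% of all genes, and 12 of 14 chaperone genes were higher, against 38.5%. The median log2 ratios were -0.25 in the ATF4 arm, 0.21 in the ER chaperone arm and -0.06 over all genes. With the other scalings Ppp1r15a changed sign and 16 ATF4 arm genes were lower.

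The differences were small. No member was 2-fold apart, against 0.162% of all genes higher and 0.0629% lower. At least 1.5-fold lower were 2 members, Atf5 and Trib3, against 1.28% of all genes, and no member was 1.5-fold higher, against 0.844%. Atf5 had a fold of 0.537 (0.503 to 0.573) in Ti+Se-Met over Ti, and Trib3 a fold of 0.548 (0.481 to 0.623). Their levels of 77.9 and 17.2 FPKM in Ti+Se-Met stayed above the 40.9 and 4.73 FPKM of CTL. The next lowest folds of the ATF4 arm included Sesn2 at 0.682 (0.615 to 0.755), Psph at 0.754 (0.675 to 0.842) and Asns at 0.766 (0.722 to 0.813). The low-count Atf3 was at 0.649 with an interval that included 1 (0.350 to 1.15). The sensor gene Eif2s1 was at 0.757 (0.700 to 0.818). Atf4 itself was at 0.942 (0.901 to 0.984), nearly level.

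The chaperones that were highest in Ti+Se-Met over Ti were Pdia4 at 1.5 (1.40 to 1.60), Pdia6 at 1.39 (1.33 to 1.46), Calr at 1.37 (1.32 to 1.41), Manf at 1.35 (1.28 to 1.41) and Hsp90b1 at 1.34 (1.31 to 1.37). The interval of the fold was above 1 for 11 of 14 chaperone genes, against 15.6% of the 10919 genes with a length, and below 1 for 12 of 19 ATF4 arm genes, against 29.0%. Such intervals are narrow for abundant genes, and they hold no replicate error. Levels ran from CTL through Ti+Se-Met to Ti in 17 of 19 ATF4 arm genes, against 32.0% of all genes, the exceptions being Cebpg and Mthfd2. They ran in the opposite order, with Ti lowest and CTL highest, in 8 of 14 chaperone genes, against 19.6% of all genes. An extreme value in the Ti library favours either order. In sum, the ATF4 arm was at 1191 FPKM and the chaperone arm at 2169 FPKM in Ti+Se-Met, a ratio of 1.82.

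**Figure D5:**
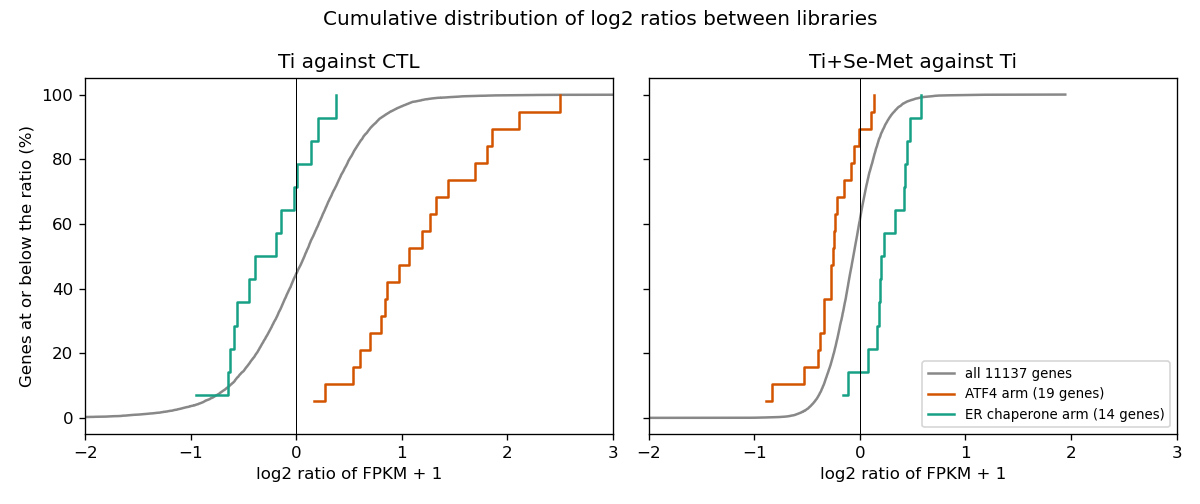
Share of genes (%) at or below each log2 ratio of FPKM + 1, for all 11137 genes, the 19 ATF4 arm genes and the 14 ER chaperone genes, in comparisons that share the Ti library. In Ti against CTL the ATF4 curve lies to the right of all genes (median 1.07 against 0.08) and the chaperone curve mostly to the left (-0.29), and in Ti+Se-Met against Ti they lie on the other sides (-0.25 and 0.21 against -0.06).

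Members that share a motif were then compared with the other members of their arm, as a description. The 5 ATF4 arm genes with a C/EBP-ATF element had log2 ratios in Ti against CTL with a median of 1.44, from 0.54 in Pycr1 to 2.49 in Trib3. Among the 5 is Atf3, which passed the filter only through the Ti library. The 14 without the element had a median of 1.02, from 0.17 in Cebpg to 1.85 in Cebpb, so the ranges overlapped widely. The 8 chaperone genes with either form of the ER stress element had a median of -0.42, from -0.95 in Hsp90b1 to 0.01 in Creld2. The 4 with neither form had a median of -0.23, from -0.63 in Pdia3 to 0.38 in Sdf2l1. In Ti+Se-Met against Ti the chaperone medians were 0.27 with an element and 0.05 without one, and these ranges also overlapped.

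Several members share exons with a gene on the other strand, and the sources used here do not say whether fragments were counted by strand. The overlapping genes include Nup62 for Atf5, Tmem189 for Cebpb, Cct6a for Psph, Ndufa4l2 for Shmt2, Catsper2 for Pdia3 and Dcaf1 for Manf. Manf also shares exons with Rbm15b on its own strand, where counting by strand would not separate them. Phgdh and Eif2s1 have near-identical copies elsewhere in the genome, so that their counts are uncertain.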

How the data were processed

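Total RNA of MC3T3-E1 cells was sequenced as 3 libraries, with 1 library per condition. Per the study's methods, reads with adapters or low quality were removed, the rest were aligned with HISAT2 and genes were counted with HTSeq. The submitters' processing notes also name StringTie, SAMtools and mm9, and the tool that made the FPKM values is not given in the sources used here. The authors deposited FPKM values per gene, normalized to transcript length and to the fragments of each library, with no stated scaling between libraries. Columns were matched to libraries by name, and 0 were left unmatched.

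Genes that reached 1 FPKM in 1 or more libraries were kept, and log2(FPKM + 1) differences were computed over all of them in Python 3.11.15 (pandas 2.3.3, numpy 2.4.6, scipy 1.17.1). No count model was fitted, because FPKM is a normalized unit. Depth was estimated from 453 short genes with 1 transcript in GENCODE M21, with 150 bases subtracted from each length, and lengths were found for 98.0% of the genes kept. Counting intervals cover neither replicate nor length error. Near-identical copies were searched with blastn 2.17.0. The steps were tested on simulated data.

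Members are all named, and 1 gene of the pathway lists is not reported here. The members, their grouping and the pathway lists were chosen with earlier results of these data known. Alternatives were 3 other scalings, pseudocounts of 0.1 and 5, a filter at a mean of 5 FPKM or none, and limits of 1.5-fold and 4-fold. A planned comparison of protein ends was not run.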

Additional observations from a re-analysis of the deposited data

How the results depend on the processing

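The direction of both arm medians and of their difference was the same under every alternative run in all 3 comparisons. In the difference a scaling factor cancels except through the pseudocount, so the other scalings could hardly change it. Median-of-ratios scaling kept all 12 summary results within the limits set for a shift. These limits were the members' median counting error or 1.5 times a count. In Ti against CTL, the ATF4 arm median of 1.07 became 0.86 with TPM, 0.90 with upper-quartile scaling, 1.23 for a mean FPKM of at least 5, 1.21 with a pseudocount of 0.1 and 0.87 with a pseudocount of 5. The chaperone median of -0.29 became -0.52 with TPM and -0.47 with the upper quartile. The difference of 1.36 became 1.52 for a mean FPKM of at least 5, which removes Atf3, Gdf15 and Pycr1, 1.503 with a pseudocount of 0.1 and 1.14 with 5. In Ti+Se-Met against CTL, the ATF4 median of 0.93 became 0.74 with TPM and 0.78 with the upper quartile, the chaperone median of -0.05 became -0.24 and -0.20, and the difference of 0.97 became 0.83 with a pseudocount of 5. The count of members 2-fold apart in Ti against CTL was 10, with 21 at 1.5-fold and 2 at 4-fold. With TPM it was 8 higher and 1 lower, and with the upper quartile 9 higher and 1 lower. In Ti+Se-Met against CTL it was 8, with 5 under TPM, 5 with a pseudocount of 5 and 0 at 4-fold, and between the 2 particle libraries it was 0, with 2 at 1.5-fold. TPM and the upper quartile moved the median of all genes in Ti against CTL from 0.08 to -0.13 and -0.09. The cause of these shifts was not tested. Of the libraries Ti+Se-Met had the fewest fragments, and of the members Atf3, Gdf15, Chac1 and Pycr1 are the least precise. Atf3 and Chac1 had their fewest fragments in CTL, about 10 and 59, and Gdf15 in Ti+Se-Met, about 34. Pycr1 had about 71 in CTL and in Ti+Se-Met. No paired analysis was possible because no condition had more than 1 library, so no library could be left out either.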

Other observations

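The KEGG term for protein processing in the ER, as annotated in the deposited table, held 148 genes that passed the filter, 22 of them members. Its median log2 ratio in Ti against CTL was 0.09, near the 0.08 of all genes, with 89 genes higher and 59 lower, against 55.3% and 44.5% of all genes. By at least 2-fold 3 were higher and 1 lower, against 3.63% and 3.64%. The folate one-carbon term held 16 genes, 2 of them members, with a median of 0.54. Of the 16, 11 were higher and 5 lower, against 55.3% and 44.5% of all genes. The glycine, serine and threonine term held 23 genes, 4 of them members, with a median of 0.25 in the Ti library and of -0.002 in the Ti+Se-Met library, each against CTL.

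Among amino acid and eIF2 genes outside the members, Eif2ak2, which encodes the eIF2 kinase PKR, was at 41.0, 24.5 and 24.1 FPKM, again in the order CTL, Ti, Ti+Se-Met. The amino acid transporter genes Slc3a2 and Slc7a11 were at 144.6, 203.1 and 210.0 FPKM and at 21.2, 28.7 and 25.6 FPKM, whereas Slc7a5 was at 26.5, 23.6 and 26.6 FPKM. Ddit4, an mTORC1 inhibitor induced by several stresses, was at 109.7, 96.9 and 71.6 FPKM. These genes were picked for their values within the pathway list.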
